A study of Mus musculus with 9 samples.

Results

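The genes described here encode the ATP-binding cassette (ABC) family, proteins that mostly use ATP to move a substrate across a membrane. They were taken by name from the deposited count table of mouse (Mus musculus) jejunum: every row whose symbol begins with Abca, Abcb, Abcc, Abcd, Abce, Abcf or Abcg and a digit, apart from Abcc2 and Abcc3, which were not analysed here. This gave 48 of 21868 genes, 16 of them Abca, 10 Abcb, 8 Abcc, 4 Abcd, 1 Abce, 3 Abcf and 6 Abcg, and the rule uses no measured value. The libraries come from a 5 cm piece of jejunum taken after 24 h of sham treatment, of TPN (total parenteral nutrition, in textbook use the supply of nutrients through a vein) or of starvation, with 3 libraries in each group. The labels call the libraries biological replicates without saying that each came from a separate mouse, so p-values may measure technical spread only. The labels name no strain, age, diet or detail of the sham and TPN procedures. Whole tissue was sequenced, so for every gene fewer cells of a type and less RNA per cell cannot be told apart.

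ABC exporters work at several places in an absorbing enterocyte. Abcg5 and Abcg8 join as a dimer that returns plant sterols and cholesterol to the gut lumen, while Abca1 loads cholesterol and phospholipid onto apolipoprotein A-I at the other face of the cell. Genes of these exporters are known targets of the oxysterol receptor LXR. P-glycoprotein, made from Abcb1a and Abcb1b in the mouse, and Abcg2 pump drugs and plant compounds back into the lumen. Abcd2 and Abcd3 bring fatty acyl-CoA into peroxisomes, Abcd4 and Abcb9 sit in lysosomes, and Abcb6, Abcb8 and Abcb10 are linked to mitochondria and heme. Abce1 and the Abcf proteins lack membrane segments and act on ribosomes.

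The start regions of the sterol exporters are shown because Abca1 was higher in both nutrient conditions. Abcg5 and Abcg8 are included because they varied together across the libraries. From the RefSeq starts used here, they are read in opposite directions from a shared start region. Sequences and positions are RefSeq's on GRCm38.p6, and the table gave windows of 300 bases (250 before and 50 after a start site) for 37 of the 48 genes. The first sequence holds the 150 bases before the Abca1 start (chr4:53159896-53160045, minus strand, 5′ to 3′). Capitals mark an E-box, CACGTG, at -147 to -142, and a match to a direct repeat of AGGTCA with 4 bases between the copies, the type of site that LXR binds, on the opposite strand at -67 to -52 with 3 mismatches. The second holds all 109 bases between the RefSeq start sites of Abcg5 and Abcg8 used here (chr17:84683012-84683120, plus strand, the sense of Abcg8). GENCODE starts the Abcg8 gene at 84676302, inside Abcg5, so this gap holds for those RefSeq starts only. Capitals in the second sequence mark both copies of the reverse complement of AGATAA, which GATA factors bind.
Abca1: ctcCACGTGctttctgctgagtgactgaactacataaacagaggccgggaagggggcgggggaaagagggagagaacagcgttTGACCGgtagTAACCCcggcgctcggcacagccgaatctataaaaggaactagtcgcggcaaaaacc
Abcg5 and Abcg8: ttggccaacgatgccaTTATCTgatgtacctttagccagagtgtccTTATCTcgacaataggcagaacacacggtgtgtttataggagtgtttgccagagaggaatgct
Searched on both strands of all 32851 windows, the direct repeat with up to 3 mismatches occurred in 21.9%, CACGTG in 7.15% and AGATAA in 11.2%, so matches of these kinds are not rare. Among the 44 windows of ABC genes the same motifs occurred in 4.55%, 13.6% and 13.6%. At up to 2 mismatches the direct repeat was in 3.02% of all windows and in the window of 1 of the 37 genes, Abcc10. The other motifs searched were the same repeat with 1 base between the copies, bound by PPAR and HNF4 type receptors, and the glucocorticoid response element by its consensus, both with up to 2 mismatches, and TGACNNNGC, the core of the antioxidant response element, with none. They occurred in 3.86%, 1.84% and 12.4% of all windows and in 0%, 2.27% and 13.6% of those of ABC genes.

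Total counts ran from 7779877 in TPN replicate 2 to 12084278 in sham replicate 3, and 13448 to 23904 of them fell on ABC genes, 0.147% to 0.213% of a library. Values are given as CPM, read counts scaled to library size with TMM factors, on which 1 read was worth 0.0798 to 0.119. All 7 enterocyte markers and all 7 villus tip markers had reads in every library. In sham replicate 2 the 10 smooth muscle markers summed to 9673 CPM against 441 to 1395 in the other 8 libraries. In starvation replicate 3 the villus tip markers summed to 74912 CPM, where starvation replicates 1 and 2 had 14331 and 23661, and the 6 stem cell markers to 171 CPM against 703 and 554. Pancreatic acinar markers, most of them at 0 in some libraries, summed to 9260 CPM in TPN replicate 2, 1697 in sham replicate 1, 1210 in starvation replicate 1 and 182 in TPN replicate 1, against 15.6 to 19.7 elsewhere.

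Of the 48 genes, 36 had enough reads to be tested, with at least 74 in the 9 libraries together, and the other 12 had at most 40. Abca14 was among the 36 only through its reads in starvation, the group where it was high. Of the 36, 11 passed in at least 1 comparison (30.6%), as did 12.9% of all genes tested. In TPN against sham, Abca1 and Abcc6 were higher and 4 genes lower, among them Abca2, Abcd3 and Abcb1a, by the edgeR quasi-likelihood test with an adjusted p under 0.05 over all 14668 genes tested. That is 5.56% higher and 11.1% lower of the 36 (2 and 4 genes), where 3.48% of all tested genes were higher and 5.12% lower. In starvation against sham, 6 were higher (Abca1, Abcc6, Abca14, Abcc5, Abcc10 and Abcg8), 16.7% of the 36 against 2.55% of all genes, and 0 were lower (0 also at an unadjusted p under 0.05 and by DESeq2), against 1.14%. In TPN against starvation, 6 were lower, among them Abca14, Abcb1a, Abca2, Abcb10 and Abcd3, 16.7% against 3.90% of all genes, and 0 were higher (1 at an unadjusted p under 0.05, 0 by DESeq2), against 1.94%. The median log2 fold changes of the 36 genes in these comparisons were -0.08, 0.19 and -0.28, beside -0.02, -0.01 and -0.03 over all genes.

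These counts depend on which libraries enter the fit. Sham replicate 2 and starvation replicate 3, set apart above by their smooth muscle, villus tip and stem cell markers, were also left out together. Without these libraries, the ABC genes called were 7 higher and 9 lower in TPN against sham, 10 and 4 in starvation against sham, and 2 and 8 in TPN against starvation. Over all genes the corresponding counts were 2232 and 2193, 1612 and 1337, and 1500 and 1705. When only the 6 sham and starvation libraries were fitted, 0 ABC genes passed in either direction, so all 6 calls in starvation were lost, with adjusted p of 0.0865 to 0.15 (8 higher and 0 lower at an unadjusted p under 0.05), and over all genes 2 were higher and 0 lower. With library totals in place of TMM factors the median log2 fold change of all genes moved by 0.19 in TPN against sham and by 0.14 in TPN against starvation, and the share of calls that were lower went from 59.6% to 46.8% and from 66.7% to 60.1%. With those totals the ABC genes were 5 higher and 4 lower in TPN against sham, and 3 were lower in TPN against starvation. Over all genes these counts were 651 and 573, and 430. DESeq2 kept the edgeR calls and added others. Abcc5, Abcg1 and Abcg8 were then higher and Abcb10 and Abcf1 lower in TPN than in sham. Abcg5 was higher in starvation than in sham, and Abcb9 and Abcc10 were lower in TPN than in starvation. Over all genes DESeq2 also called more, 969 higher and 1340 lower in TPN against sham. Both comparisons with sham use the same 3 sham libraries, and both with TPN the same 3 TPN libraries.

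**Figure D1:**
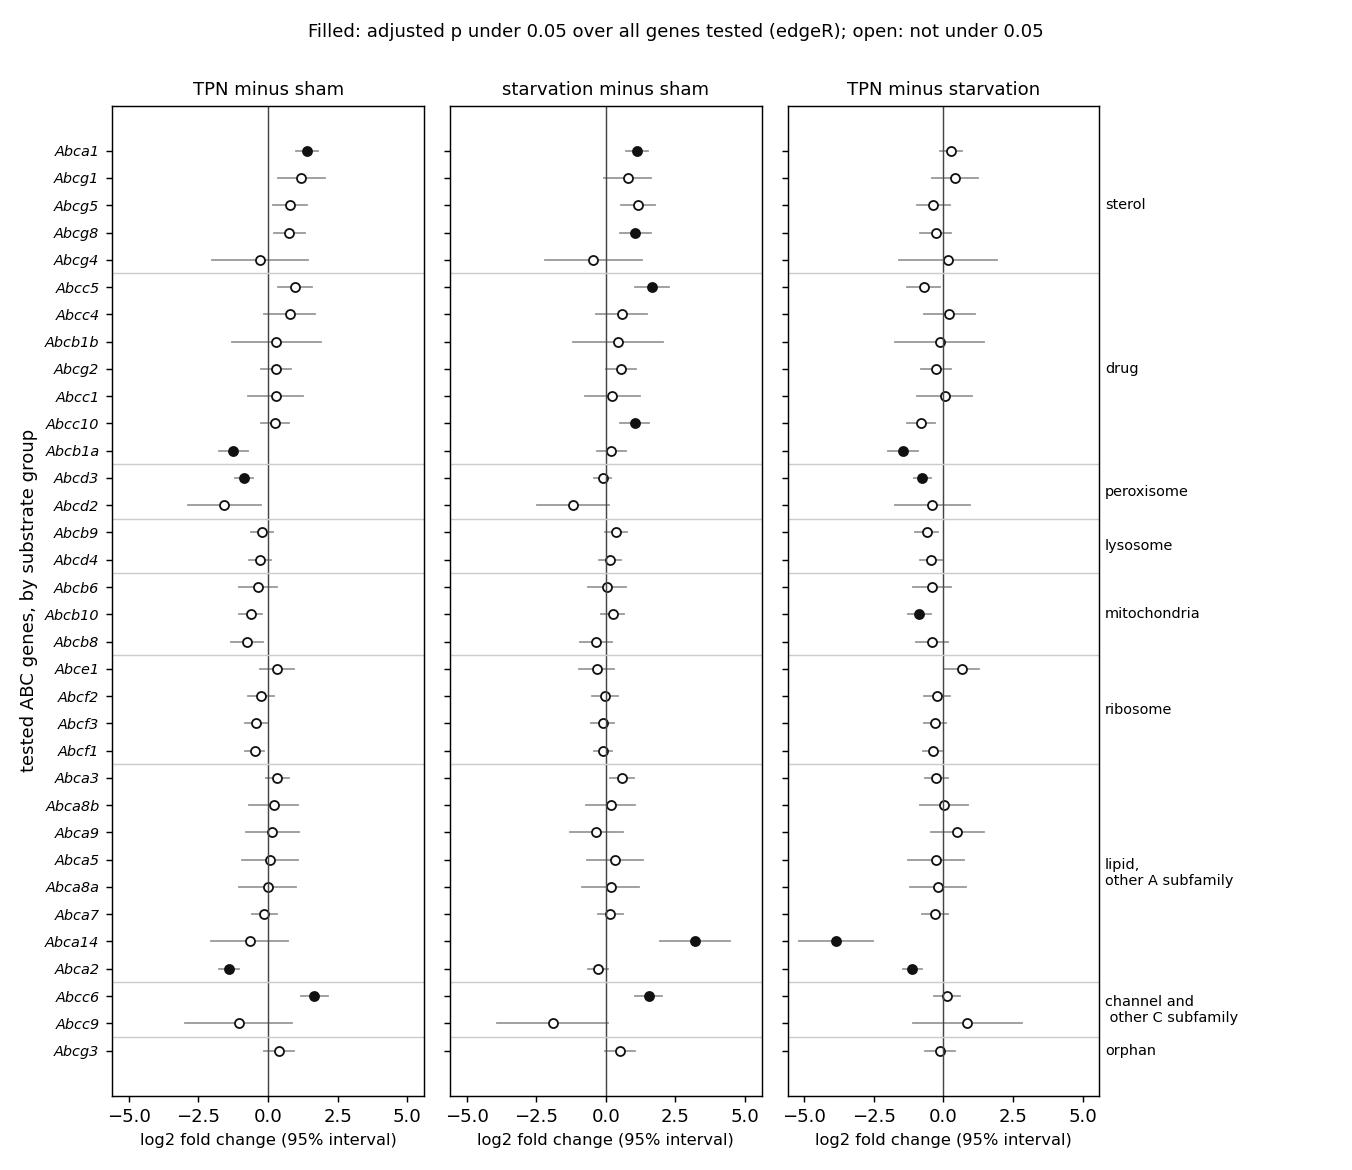
Log2 fold change of 34 tested ABC genes (rows, by substrate group) in TPN minus sham, starvation minus sham and TPN minus starvation, with 95% intervals; filled points passed the edgeR test at an adjusted p under 0.05. Abca1 and Abcc6 lie right of zero in both comparisons with sham, Abca2, Abcd3 and Abcb1a lie left of zero in both comparisons with TPN, and Abca14 has the longest distance from zero, -3.86, in TPN minus starvation.

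Among the sterol exporters, Abca1 was higher after both TPN and starvation, and Abcg8 was higher after starvation. Abcg5, Abcg8 and Abcg1 had all 3 TPN libraries above all 3 sham libraries without passing the test. The share of all genes with groups apart in this way is not given. Here and for the genes below, such a separation is therefore a description and not a test. Abca1 (chromosome 4, 53030787 to 53159895, minus strand) was at 25.7, 35.8 and 35.2 CPM in the sham libraries, 88.8, 87.6 and 76.4 in TPN and 63.7, 62.6 and 83.0 in starvation. No sham library reached the lowest library of either other group, and TPN and starvation overlapped. Abca1 had a log2 fold change of 1.38 ± 0.18 in TPN against sham (edgeR adjusted p = 0.00332) and 1.11 ± 0.17 in starvation against sham (adjusted p = 0.0168). Between TPN and starvation it was 0.27 ± 0.17 (adjusted p = 0.383). The TPN call was kept under all 18 alternatives. Leaving out sham replicate 3 or starvation replicate 2 ended the starvation call, with adjusted p of 0.0566 to 0.0624, while the log2 fold change stayed at 1.18.

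Abcg5 (chromosome 17, 84658234 to 84683011, minus strand) was at 113, 104 and 125 CPM in the sham libraries, 232, 192 and 164 in TPN and 176, 209 and 372 in starvation. Abcg8, its dimer partner (chromosome 17, 84676302 to 84700333, plus strand), was at 159, 134 and 180.4 CPM in the sham libraries, 311, 264 and 232 in TPN and 239, 297 and 447 in starvation. For both genes every TPN and every starvation library lay above every sham library, and starvation replicate 3, the library with the highest villus tip and enterocyte markers, was the highest of the 9. In starvation against sham the log2 fold change of Abcg8 was 1.05 ± 0.25 (edgeR adjusted p = 0.0488) and that of Abcg5 1.14 ± 0.27 (adjusted p = 0.0519), on opposite sides of the threshold with nearly equal sizes. In TPN against sham they were 0.77 ± 0.24 (adjusted p = 0.0808) and 0.78 ± 0.27 (adjusted p = 0.104). Abcg8 had 1.20 to 1.44 reads for each read of Abcg5 in the 9 libraries, while Abcg5 itself ran from 104 to 372 CPM. The exons of the genes share 82 bases on opposite strands, where reads cannot be told apart if strand was not used in counting.

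The call for Abcg8 in starvation rested on few settings. It was lost in 7 of the 9 fits that leave out 1 library (each sham and TPN library, and starvation replicate 2; adjusted p of 0.0868 to 0.118), with RLE size factors and without the filter on low counts. Without sham replicate 2 and starvation replicate 3 its log2 fold change was 0.66 (adjusted p = 0.0227). The part of the villus tip markers, which were highest in starvation replicate 3, was not tested. With the same 2 libraries left out, Abcg5, Abcg8 and Abcg1 passed in TPN against sham, at log2 fold changes of 0.76 (adjusted p = 0.0062), 0.71 (adjusted p = 0.0082) and 1.61 (adjusted p = 0.0017). That fit called more genes of every kind. Over all genes, those higher in TPN than in sham went from 510 to 2232. Those higher in starvation than in sham went from 374 to 1612.

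Abcg1, which passes cholesterol to high-density lipoprotein and is abundant in macrophages, was at 2.75, 5.97 and 3.50 CPM in the sham libraries, 9.48, 8.34 and 10.1 in TPN and 6.78, 9.92 and 4.28 in starvation. Its TPN libraries were all higher than its sham libraries, and starvation overlapped both. It had a log2 fold change of 1.20 ± 0.38 in TPN (edgeR adjusted p = 0.0787) and 0.78 ± 0.38 in starvation (adjusted p = 0.244). The 8 macrophage markers summed to 376 to 570 CPM in sham, 423 to 451 in TPN and 284 to 362 in starvation, so their ranges overlapped between sham and TPN. Abcg4, a relative known from brain, stayed at 0.12 to 1.52 CPM in all libraries.

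**Figure D2:**
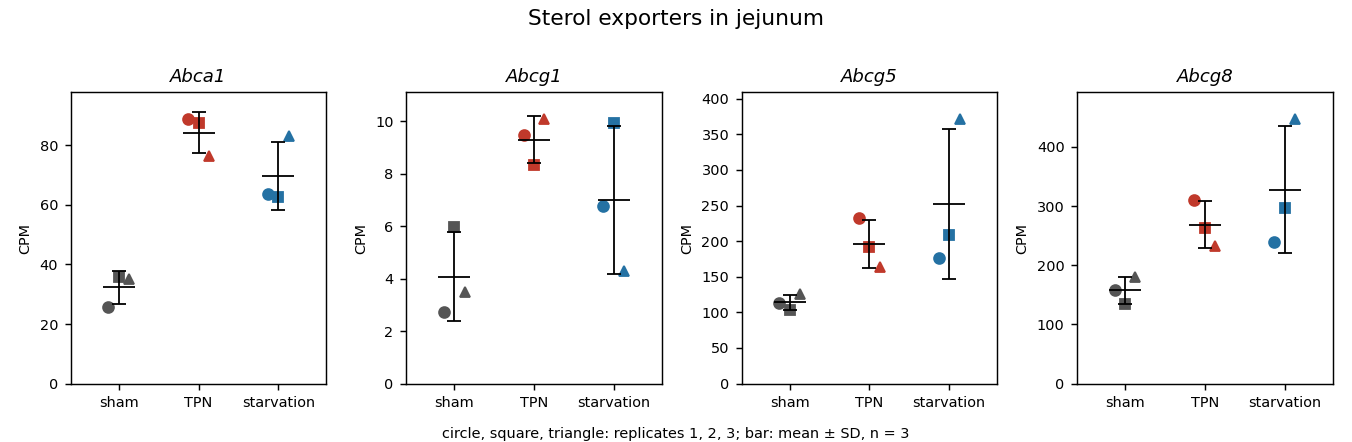
CPM of Abca1, Abcg1, Abcg5 and Abcg8 in sham, TPN and starvation (vertical axes in CPM from 0; circle, square and triangle are replicates 1, 2 and 3, bars the mean ± SD, n = 3). All 3 TPN libraries lie above all 3 sham libraries in each panel, and starvation replicate 3 is the highest point for Abcg5 at 372 CPM and for Abcg8 at 447 CPM.

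Other genes of sterol absorption and of the LXR response were counted from a list of 17. That list and the pathway lists below were chosen with earlier results of these data known. Their shares beside those of all genes are therefore descriptions and not tests. Of the 17, 1 was higher and 1 lower in TPN against sham, 5.88% each way, near the 3.48% and 5.12% of all genes. Srebf1, an LXR target that drives fatty acid synthesis, was higher (log2 fold change 1.65 ± 0.24), and Npc1l1, the importer of cholesterol from the lumen, was lower (-1.44 ± 0.35). Nr1h3, the gene of LXR alpha, was at -0.15 ± 0.23 (edgeR adjusted p = 0.712). In starvation 0 passed in either direction, beside 2.55% of all genes higher and 1.14% lower. At an unadjusted edgeR p under 0.05, 2 were higher and 1 lower in starvation, and DESeq2 called 0. Srebf1 was at -0.10 ± 0.23 there, so Abca1 was higher in both conditions while Srebf1 was higher in TPN alone, by 1.76 ± 0.24 against starvation (adjusted p = 0.00575). Mylip, on the same list, had the direction of Abca1 in both conditions. It was at 1.36 ± 0.48 in TPN and 1.34 ± 0.48 in starvation (edgeR adjusted p = 0.108 and 0.141). It passed in neither, though DESeq2 called it in TPN. Soat2, which esterifies cholesterol in enterocytes, was lower in TPN than in starvation (-1.44 ± 0.29).

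Of the peroxisomal importers, Abcd3, a major protein of the peroxisomal membrane, was lower in TPN than in sham and than in starvation. Abcd3 (chromosome 3, 121758774 to 121815302, minus strand) was at 301, 269.6 and 299 CPM in the sham libraries, 161, 156 and 159.7 in TPN and 264, 257 and 286 in starvation. The 3 TPN libraries lay within 5 CPM of each other and far below all the others. Abcd3 had a log2 fold change of -0.87 ± 0.14 against sham (edgeR adjusted p = 0.00838) and -0.76 ± 0.14 against starvation (adjusted p = 0.0154). In starvation against sham, Abcd3 was at -0.11 ± 0.14, with groups that overlapped. Leaving out any 1 TPN library moved its adjusted p in TPN against sham just past the threshold, to 0.0528 to 0.0569, with log2 fold changes of -0.88 to -0.85. Against starvation the same happened when any 1 TPN library was left out, with adjusted p of 0.0838 to 0.0956 (log2 fold change -0.77 to -0.75). With library totals alone, Abcd3 lost its call against starvation. Abcd2, the paralogue that is abundant in fat and brain, was rare, at 1.28, 2.67 and 4.75 CPM in the sham libraries, 0.494, 1.31 and 1.12 in TPN and 0.878, 1.69 and 1.27 in starvation, and its groups overlapped.

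The list of 30 other peroxisomal genes, also chosen with earlier results known, had 1 higher and 3 lower in TPN against sham. That is 3.33% and 10%, beside 3.48% and 5.12% of all genes. Ppara, the nuclear receptor that induces many peroxisomal oxidation genes, was higher (log2 fold change 1.87 ± 0.29, edgeR adjusted p = 0.00773). Pex14 (-0.70 ± 0.13) and Pex19 (-0.70 ± 0.14), which import peroxisomal proteins, and Acaa1b (-1.29 ± 0.27), a thiolase of peroxisomal oxidation, were lower. The list's median log2 fold change was -0.26, against -0.02 over all genes. In starvation 0 of the 30 passed in either direction, beside 2.55% of all genes higher and 1.14% lower. At an unadjusted edgeR p under 0.05, 5 were higher and 0 lower in starvation, and by DESeq2 3 and 0. The list's median there was 0.21. In TPN against starvation 6 were lower, 20% beside 3.90% of all genes, among them Acaa1b (-1.39 ± 0.27), Pex14 (-0.61 ± 0.13) and Amacr (-0.85 ± 0.17), a racemase for branched fatty acids and bile acid intermediates. With only the groups compared in the fit, 1 of the 30 was lower and 1 higher, and over all genes 295 were lower and 250 higher.

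Of the 7 tested drug exporters, 3 passed in at least 1 comparison, 42.9% beside the 12.9% of all genes. Abcb1a, the P-glycoprotein gene of the mouse intestine, was lower in TPN than in both other groups, Abcc5 and Abcc10 were higher in starvation than in sham, and the other 4 tested genes passed in no comparison. Abcb1a (chromosome 5, 8660077 to 8748575, plus strand) was at 133, 163 and 169.5 CPM in the sham libraries, 65.0, 70.7 and 60.7 in TPN and 121, 173 and 243 in starvation. The highest TPN library had less than the lowest of the other 6 libraries. Abcb1a had a log2 fold change of -1.25 ± 0.24 against sham (edgeR adjusted p = 0.0155) and -1.45 ± 0.24 against starvation (adjusted p = 0.0114). Leaving out sham replicate 3 or any 1 TPN library ended the call against sham (adjusted p of 0.0590 to 0.0824, log2 fold change -1.30 to -1.18). Leaving out any 1 TPN library also ended the call against starvation (adjusted p of 0.0599 to 0.0709, log2 fold change -1.51 to -1.40). Of the 50-base words of Abcb1a exons, 22.5% also occur in other genes, chiefly Abcb1b, so reads of the pair may be split. Abcb1b was rare, at 1.47, 1.60 and 2.50 CPM in the sham libraries, 2.80, 0.954 and 3.04 in TPN and 0.479, 2.53 and 4.63 in starvation, and its groups overlapped.

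Some enterocyte and villus tip markers were lower in TPN as well. Of the 7 enterocyte markers, Alpi and Fabp2 were lower in TPN than in sham, where 5.12% of all genes were lower. The other 5 did not pass, and 1 of the 7 had a log2 fold change above 0. The sum of the 7 was 14168 to 17410 CPM in TPN against 19526 to 27094 in sham and 15662 to 46023 in starvation. Of the 7 villus tip markers, Slc28a1 passed as lower in TPN than in sham and in starvation, and the other 6 did not pass. All 7 had log2 fold changes below 0, with a median of -1.52 against sham and -2.05 against starvation. The 7 summed to 18864 to 23609 CPM in TPN, below every sham library (23970 to 57384) and within the range of starvation (14331 to 74912). The part of enterocyte number or maturity in the lower Abcb1a, Abcd3 and Abca2 was not tested.

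Abcc5, an exporter of cyclic nucleotides and other organic anions (chromosome 16, 20331303 to 20426394, minus strand), was at 7.56, 9.60 and 9.16 CPM in the sham libraries, 17.4, 16.2 and 17.3 in TPN and 18.4, 25.0 and 39.9 in starvation. Every starvation and TPN library exceeded every sham library, and starvation replicate 3 was the highest. Abcc5 had a log2 fold change of 1.66 ± 0.27 in starvation against sham (edgeR adjusted p = 0.0206) and 0.95 ± 0.27 in TPN against sham (adjusted p = 0.0611). Leaving out sham replicate 1 or 3, TPN replicate 1 or starvation replicate 2 ended the starvation call (adjusted p of 0.0517 to 0.0806), and the log2 fold change was 1.37 (adjusted p = 0.0025) without sham replicate 2 and starvation replicate 3.

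Abcc10, a broad exporter of lipophilic drugs (chromosome 17, 46303221 to 46328352, minus strand), was at 19.6, 13.4 and 22.7 CPM in the sham libraries, 23.2, 23.2 and 19.6 in TPN and 34.2, 32.7 and 47.7 in starvation. Starvation lay above both other groups, while sham and TPN overlapped. The log2 fold change in starvation against sham was 1.03 ± 0.23 (edgeR adjusted p = 0.0412), and it was lost in 8 of the 9 fits that leave out 1 library, all but that without starvation replicate 3 (adjusted p of 0.0588 to 0.0941, log2 fold change 0.85 to 1.21). Without sham replicate 2 and starvation replicate 3 it was 0.66 (adjusted p = 0.0115).

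Abcg2, the breast cancer resistance protein of the apical membrane, was at 15.5, 11.1 and 15.6 CPM in the sham libraries, 17.3, 17.2 and 16.8 in TPN and 15.6, 18.6 and 27.8 in starvation. Its TPN libraries were above its sham libraries by little, with a log2 fold change of 0.28 ± 0.24 (95% interval -0.26 to 0.82). Abcc1, a basolateral exporter of glutathione conjugates, was at 7.17, 6.83 and 3.92 CPM in the sham libraries, 7.25, 6.56 and 7.77 in TPN and 11.2, 6.76 and 2.89 in starvation. Abcc4, an exporter of cyclic nucleotides and urate, was at 3.83, 5.23 and 4.58 CPM in the sham libraries, 8.82, 7.63 and 7.05 in TPN and 10.1, 7.28 and 2.78 in starvation. In starvation both were highest in replicate 1 and lowest in replicate 3, the reverse of Abcg5 and Abcb1a, and none of the 3 genes passed in any comparison. Abcc12, a relative of Abcc5, had 14 reads in all and was not tested.

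The list of 23 drug-metabolizing enzymes and their receptors, also chosen with earlier results known, had 1 higher and 8 lower in TPN against sham. That is 4.35% and 34.8%, beside 3.48% and 5.12% of all genes. The list's median log2 fold change was -0.62, against 0.28 over the 7 tested drug exporters. Nr1i2, the gene of the pregnane X receptor, which induces P-glycoprotein, was higher (log2 fold change 1.07 ± 0.28, edgeR adjusted p = 0.0452). Nqo1 (-2.63 ± 0.17) and the glutathione transferase Gstm1 (-1.90 ± 0.16) were lower. In starvation 0 were higher, beside 2.55% of all genes (7 at an unadjusted p under 0.05, 4 by DESeq2), and 1 was lower, 4.35% beside 1.14%. The carboxylesterase Ces2a was the lower one (-1.17 ± 0.18). Nr1i2 was at 1.03 ± 0.28 in starvation against sham (edgeR adjusted p = 0.0731) and was among those that DESeq2 called. In TPN against starvation 1 was higher and 9 were lower, 4.35% and 39.1% beside 1.94% and 3.90% of all genes. Nr1i3, another receptor gene of the list, was among those lower (-0.75 ± 0.18, edgeR adjusted p = 0.0406), and Nr1i2 was at 0.04 ± 0.27.

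The A subfamily outside Abca1 holds 15 genes, most of them linked to lipid movement, of which 8 were tested. Abca2, a lipid transporter of endosomes and lysosomes (chromosome 2, 25428703 to 25448540, plus strand), was at 48.2, 42.1 and 55.6 CPM in the sham libraries, 16.6, 19.4 and 19.8 in TPN and 41.3, 44.0 and 35.3 in starvation. All TPN libraries were below 20 CPM and all others above 35. Abca2 had a log2 fold change of -1.39 ± 0.16 against sham (edgeR adjusted p = 0.00235), kept under all 18 alternatives, and -1.11 ± 0.16 against starvation (adjusted p = 0.00668), kept under all but library totals. Starvation against sham gave -0.27 ± 0.16 (adjusted p = 0.315), with overlapping groups.

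Abca14 (chromosome 7, 120203961 to 120325352, plus strand) was rare outside starvation. It had 8, 5 and 9 reads in sham, 7, 5 and 2 in TPN, and 58, 40 and 92 in starvation, or 0.785, 0.533 and 0.750 CPM in the sham libraries, 0.577, 0.596 and 0.160 in TPN and 4.63, 4.22 and 10.6 in starvation. Each starvation library had several times the reads of any other library. Abca14 passed the filter on low counts only through these starvation libraries, so its calls are not independent of that filter. The log2 fold change was 3.20 ± 0.56 against sham (edgeR adjusted p = 0.0234), and TPN against starvation gave -3.86 ± 0.59 (adjusted p = 0.00876), which all alternatives kept. The call against sham was lost in 6 of the 9 fits that leave out 1 library (each sham library, TPN replicates 1 and 2 and starvation replicate 2; adjusted p of 0.0512 to 0.0837), at log2 fold changes of 3.05 to 3.44. None of its exonic 50-base words occurs in another gene. Its neighbours Abca15 and Abca16, which follow it on the same strand, had 1 and 3 reads in all 9 libraries.

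The other 6 tested genes of the subfamily passed in no comparison. Abca3, known for surfactant lipid in the lung, had 30.6 to 46.1 CPM in sham, 40.0 to 57.6 in TPN and 53.9 to 61.4 in starvation, and Abca7, a phospholipid transporter, 33.0 to 56.8 CPM over all libraries. Reads of Abca3 can include those of an overlapping antisense transcript, with which it shares most of the 10.1% of its 50-base words found elsewhere. Abca5, Abca8a, Abca8b and Abca9, which stand in a row on chromosome 11 with Abca6, had 1.16 to 8.13 CPM. Abca4, Abca6, Abca13 and Abca17 had 11 to 17 reads in all, and Abca12 had 0, which allows up to 0.239 to 0.357 CPM per library (3 reads, counting error only).

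**Figure D3:**
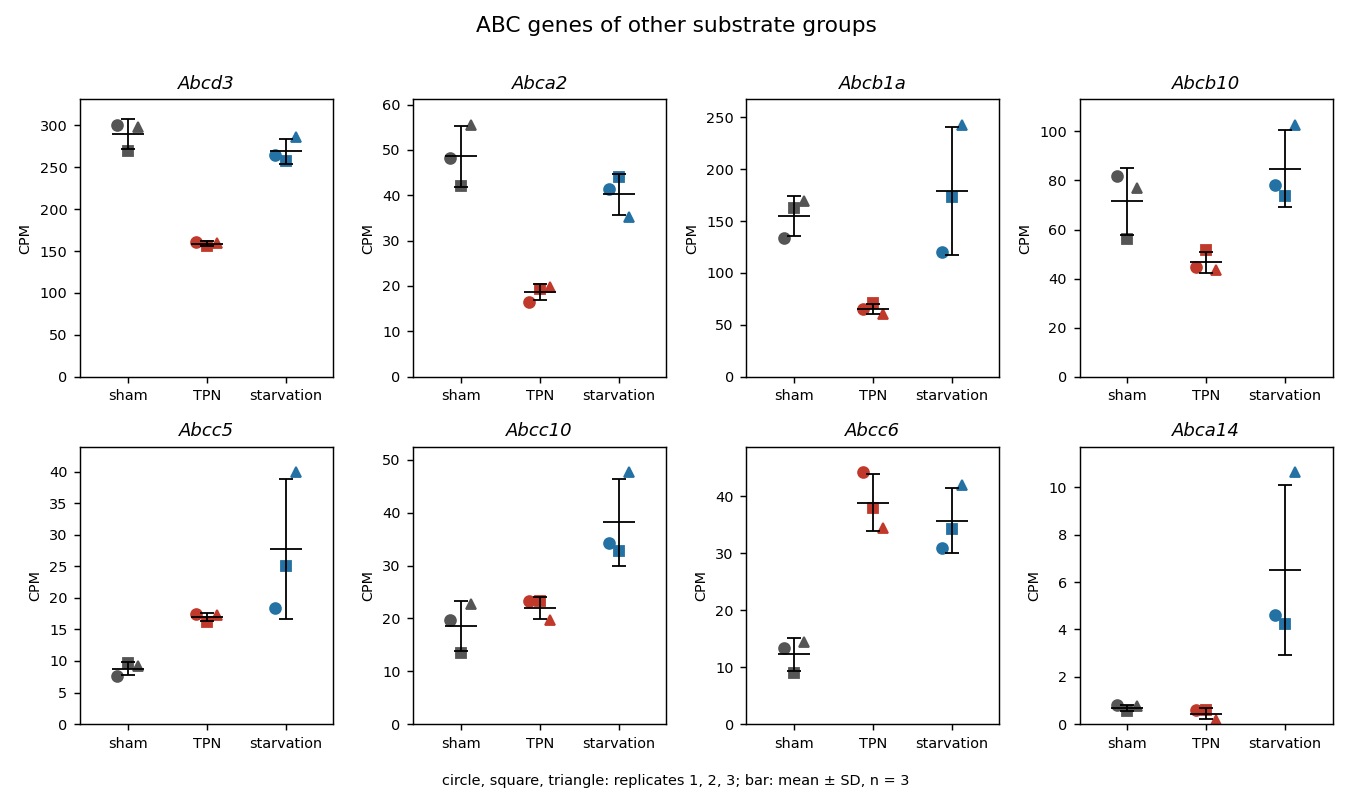
CPM of Abcd3, Abca2, Abcb1a, Abcb10, Abcc5, Abcc10, Abcc6 and Abca14 by group (vertical axes in CPM from 0; circle, square and triangle are replicates 1, 2 and 3, bars the mean ± SD, n = 3). TPN is the lowest group for Abcd3, Abca2, Abcb1a and Abcb10, sham is the lowest for Abcc5 and Abcc6, and Abca14 exceeds 4 CPM in starvation alone.

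Among the mitochondrial members, Abcb10 was lower in TPN than in starvation. Abcb10, which stabilizes mitochondrial iron importers and serves heme synthesis (chromosome 8, 123952459 to 123983122, minus strand), was at 81.8, 56.0 and 76.8 CPM in the sham libraries, 44.8, 51.5 and 43.6 in TPN and 78.1, 73.7 and 103 in starvation. All TPN libraries were below all others. The log2 fold change was -0.86 ± 0.18 against starvation (edgeR adjusted p = 0.0286) and -0.62 ± 0.18 against sham (adjusted p = 0.0687). The call against starvation was lost in 5 of the 9 fits that leave out 1 library (sham replicate 3, each TPN library and starvation replicate 3; adjusted p of 0.0504 to 0.137, log2 fold change -0.94 to -0.65) and with library totals.

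Abcb8, an inner membrane transporter, was at 40.3, 21.0 and 40.8 CPM in the sham libraries, 18.4, 23.8 and 18.6 in TPN and 29.2, 28.5 and 22.9 in starvation. Sham replicate 2 lay among the TPN libraries for Abcb8, which did not pass (log2 fold change -0.75 ± 0.26 in TPN against sham, edgeR adjusted p = 0.0968). Abcb6, a porphyrin transporter, was at 22.1, 12.9 and 20.2 CPM in the sham libraries, 12.1, 20.7 and 10.3 in TPN and 21.9, 19.4 and 15.3 in starvation, with no order between groups, and 2840 of its 5679 exonic 50-base words also belong to an overlapping transcript on the same strand.

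The list of 20 genes of heme and iron-sulfur clusters, also chosen with earlier results known, had 2 higher and 5 lower in TPN against sham. That is 10% and 25%, beside 3.48% and 5.12% of all genes. Slc25a37 (1.20 ± 0.24) and Slc25a28 (0.98 ± 0.15), the mitochondrial iron importers, were higher. Fech, which inserts iron into heme, was lower (log2 fold change -0.93 ± 0.13, edgeR adjusted p = 0.00507), as was Flvcr1, a transporter linked to heme export (-1.26 ± 0.21). After starvation 1 was higher than in sham, Slc25a28 (0.88 ± 0.15), 5% beside 2.55% of all genes. In the same comparison 0 were lower, beside 1.14% of all genes (2 at an unadjusted p under 0.05, 1 by DESeq2). The list's median log2 fold change in TPN against sham was -0.39, beside -0.02 over all genes.

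The lysosomal pair passed in no comparison by edgeR, though DESeq2 called Abcb9 lower in TPN than in starvation. Abcd4, which moves cobalamin out of lysosomes, was at 16.3, 14.4 and 16.2 CPM in the sham libraries, 12.5, 11.8 and 13.9 in TPN and 14.5, 18.8 and 19.0 in starvation, and all TPN libraries were below all others by a small margin. Abcb9, a peptide transporter, had 20.1 to 26.1 CPM in sham, 16.3 to 22.4 in TPN and 28.5 to 33.9 in starvation. TPN against starvation gave log2 fold changes of -0.45 ± 0.18 for Abcd4 (edgeR adjusted p = 0.175) and -0.61 ± 0.18 for Abcb9 (adjusted p = 0.0801). Of 11 tested genes of cobalamin uptake and use, 1 was higher in starvation than in sham, 9.09% beside 2.55% of all genes. It was Cubn, a receptor subunit for the cobalamin carrier in the ileum (2.17 ± 0.41), which was lower in TPN than in starvation (-3.01 ± 0.43).

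The ribosomal members, among the more abundant of the family, passed in no comparison by edgeR, though DESeq2 called Abcf1 lower in TPN than in sham. Abcf1, a factor of translation initiation, was at 144, 127 and 155 CPM in the sham libraries, 97.6, 112 and 94.0 in TPN and 118, 131 and 149 in starvation, with TPN below all other libraries and a log2 fold change of -0.49 ± 0.15 against sham (edgeR adjusted p = 0.0732). Abcf3 was at 43.2, 38.1 and 47.0 CPM in the sham libraries, 30.4, 33.1 and 31.6 in TPN and 34.1, 33.9 and 50.4 in starvation, with TPN again the lowest group. Abcf2 was at 24.5, 19.6 and 22.9 CPM in the sham libraries, 20.9, 20.5 and 14.6 in TPN and 26.1, 22.6 and 17.2 in starvation, and its groups overlapped. Abce1, which splits ribosomes for reuse, went the other way, at 63.1, 45.1 and 56.7 CPM in the sham libraries, 64.5, 76.9 and 64.8 in TPN and 55.8, 51.5 and 24.0 in starvation, with the TPN libraries highest and starvation replicate 3 lowest. Its log2 fold change was 0.32 ± 0.28 in TPN against sham (adjusted p = 0.492).

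Among 18 tested genes of translation initiation and ribosome recycling, 2 were higher and 1 lower in TPN against sham, 11.1% and 5.56% beside 3.48% and 5.12% of all genes. Eif3j1 (0.56 ± 0.14), which works with Abce1 in recycling, and Mcts1 (1.19 ± 0.22) were higher. Pelo, a ribosome rescue factor, was lower (-0.52 ± 0.13). After starvation 2 were higher than in sham, Mcts1 (1.13 ± 0.22) and Hbs1l (0.62 ± 0.13), 11.1% beside 2.55% of all genes. In the same comparison 0 were lower, beside 1.14% of all genes (7 at an unadjusted p under 0.05, 0 by DESeq2).

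Abcc6, which mediates ATP release and is mutated in pseudoxanthoma elasticum (chromosome 7, 45967555 to 46030302, minus strand), was higher in both conditions. It was at 13.3, 8.96 and 14.5 CPM in the sham libraries, 44.3, 37.9 and 34.5 in TPN and 31.0, 34.2 and 42.0 in starvation. The highest sham library was below the lowest of the other 6, and TPN and starvation overlapped. The log2 fold change was 1.66 ± 0.21 in TPN against sham (edgeR adjusted p = 0.00347), kept under all 18 alternatives, and 1.54 ± 0.21 in starvation against sham (adjusted p = 0.0105). The starvation call was lost without starvation replicate 2 (adjusted p = 0.0539, log2 fold change 1.57).

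Abcc9, the sulfonylurea receptor subunit of potassium channels in smooth muscle and pericytes, was at 8.15, 91.6 and 12.4 CPM in the sham libraries, 9.81, 8.46 and 35.3 in TPN and 11.6, 7.18 and 11.0 in starvation. Sham replicate 2, with the smooth muscle markers given above, was the highest, followed by TPN replicate 3, and the other 7 libraries lay between 7.18 and 12.4 CPM. Kcnj8, the pore subunit that pairs with it, was at 8.74, 66.1 and 9.50 CPM in the sham libraries, 9.06, 6.91 and 19.3 in TPN and 7.98, 5.17 and 3.93 in starvation, with the same 2 libraries on top. The mesothelial markers summed to 407 CPM in sham replicate 2 and 44.0 in TPN replicate 3, and to 2.15 to 72.8 in the other 7. Neither gene passed, with Abcc9 at -1.05 ± 0.86 in TPN and -1.91 ± 0.89 in starvation against sham (edgeR adjusted p = 0.461 and 0.229). Abcc8, the pancreatic counterpart of Abcc9, had 40 reads in all and was not tested.

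The bile exporters were at the edge of detection. Abcb4, which moves phosphatidylcholine into bile, had 1, 0 and 0 reads in sham, 1, 1 and 4 in TPN, and 11, 4 and 2 in starvation. Abcb11, the bile salt export pump of the liver, had 1, 3 and 1 reads in sham, 0, 1 and 0 in TPN, and 0, 0 and 10 in starvation. Neither was tested. Abcb5 had 0 reads in every library. Abcg3, a rodent-specific relative of Abcg2, had 7.58 to 13.6 CPM and passed in no comparison.

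**Figure D4:**
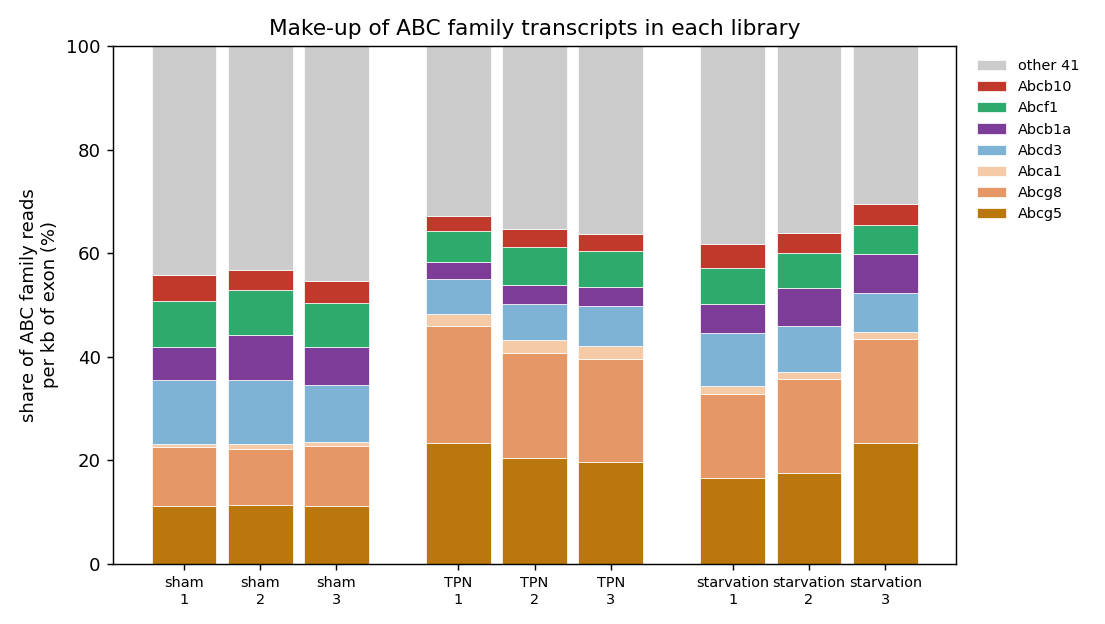
Share of each ABC gene in the family's reads per kb of exon (vertical axis in percent, stacked to 100) in the 3 libraries of each group, with 7 genes drawn one by one and the other 41 together. Abcg5 and Abcg8 together take 22.2% to 22.7% in sham and 39.6% to 46.0% in TPN, and Abcd3 goes from 10.9% to 12.2% in sham to 6.66% to 7.84% in TPN.

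Levels were compared between genes per kb of exon, using the union of exons in GENCODE M21. In sham the highest included Abcd3 at 43.9 ± 2.64 CPM per kb (mean ± SD, n = 3), Abcg8 at 42.1 ± 6.13 and Abcg5 at 42.1 ± 3.92. The 2 sterol exporters and Abcd3 lay within an SD of each other. In TPN, Abcg5 at 72.2 ± 12.7 and Abcg8 at 71.7 ± 10.5 CPM per kb came first, ahead of Abcd3 at 24.1 ± 0.377. In starvation the same 2 genes led at 92.9 ± 38.6 and 87.5 ± 28.6, with Abcd3 at 40.8 ± 2.27. As a share of the family per kb, Abcg5 and Abcg8 together made up 22.2% to 22.7% in sham, 39.6% to 46.0% in TPN and 32.8% to 43.5% in starvation. Abcd3 made up 10.9% to 12.2% in sham, 6.66% to 7.84% in TPN and 7.36% to 10.2% in starvation. The sham range was apart from both others for the sterol pair and for Abcd3, while the TPN and starvation ranges overlapped for both. A share falls when other genes rise, so it is not a level of its own.

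ABC genes named outside the family's nomenclature were counted apart. Tap1, a subunit of the peptide transporter of antigen presentation, was lower in TPN than in sham (log2 fold change -1.18 ± 0.15, edgeR adjusted p = 0.00313) and than in starvation (-0.75 ± 0.15), and its partner Tap2 was lower than in sham (-0.86 ± 0.21). Cftr, the chloride channel, was at 0.30 ± 0.27 in TPN and 0.39 ± 0.27 in starvation against sham and passed in neither.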

How the data were processed

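RNA of jejunum from 9 libraries, 3 each of sham, TPN and starvation, was measured by bulk sequencing of oligo(dT)-selected RNA. The authors deposited raw counts per gene symbol, whole numbers with a different total per library. Per the submitters' processing notes, the tools were DESeq2 1.32.0, featureCounts 2.0.0, STAR 2.7.2e, cutadapt 2.9 and FastQC 0.11.8, and the builds GRCm38 or mm10. No source used here gives the annotation, the strand setting or the handling of reads with several positions, and positions printed are from GENCODE M21 (GRCm38), in which all 48 symbols matched. The table has 9 more columns, which fit no sample label and were not used.

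The labels gave groups and replicate numbers. Libraries of a group differed beyond sampling noise (chi-square per gene 7.74 to 118). With edgeR 4.0.16 in R 4.3.3, filterByExpr kept 14668 of 21868 genes, TMM factors scaled the libraries, and the quasi-likelihood fit over all 9 libraries had 1 mean per group, leaving 6 residual degrees of freedom (biological coefficient of variation 0.314). Each comparison was a contrast, with Benjamini-Hochberg adjusted p under 0.05 over all genes tested. The SE of a log2 fold change is its size over the square root of F. The code was tested on simulated data.

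Values in every library are given for ABC genes that passed and for a fixed set of transporters, and up to 3 genes of each pathway list with the smallest adjusted p may be named. Nr1h3, Mylip, Nr1i2, Nr1i3, Slc25a37, Kcnj8, Cftr and the markers Alpi, Fabp2 and Slc28a1 fall outside that rule and were chosen after their values were seen. Values of some members are not reported here. The members and lists were chosen with earlier results of these data known. The 18 alternatives were DESeq2 1.42.0, other scaling, no filter or CPM of at least 1 in 3 libraries, the 2 groups of a comparison alone, a replicate block, each library left out, and both sham replicate 2 and starvation replicate 3 left out. No molecular identifiers are stated, so floors cover counting error only.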

Additional observations from a re-analysis of the deposited data

How the results depend on the processing

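Fold changes under the alternatives were followed for the ABC genes that passed and for the tested members of the fixed set. None of these changed sign with a call. Genes of the pathway lists were not followed one by one in this way. The count of ABC genes higher in TPN than in sham, 2 in the report, was 5 with DESeq2, 4 with upper quartile factors, 5 with library totals only, 6 with only the groups compared and 7 without both sham replicate 2 and starvation replicate 3, and it ran from 2 to 7 when single libraries were left out. The count lower in TPN than in sham, 4, was 7 with only the groups compared and 9 without both libraries, and ran from 1 to 7. The count higher in starvation than in sham, 6, was 0 with only the groups compared (8 at an unadjusted p under 0.05, 7 by DESeq2) and 10 without both libraries, and ran from 0 to 8; the 0 came without starvation replicate 2 (8 at an unadjusted p under 0.05), and 8 without starvation replicate 3. The count lower in starvation was 4 without both libraries and 0 in every other fit. The count higher in TPN than in starvation was 2 without both libraries and 0 otherwise. The count lower in TPN than in starvation, 6, was 3 with library totals only, and ran from 2 to 7, with 2 when any 1 TPN library was left out. The cause was not tested. The labels do not say whether libraries with the same replicate number are paired. Correlations of same-numbered deviations ran from -0.30 to 0.38, and differently numbered libraries were not compared, so these values cannot decide it. With the replicate number as a block the counts were 2 higher and 4 lower in TPN against sham, 1 and 0 in starvation against sham, and 0 and 4 in TPN against starvation. The calls lost with the block were those of Abca1, Abca14, Abcc5, Abcc10 and Abcg8 in starvation against sham (adjusted p of 0.0531 to 0.106) and of Abcd3 and Abcb10 in TPN against starvation (0.0518 and 0.0693). Over all genes DESeq2 called 969 higher and 1340 lower in TPN against sham, 924 and 601 in starvation against sham, and 658 and 1043 in TPN against starvation; the block gave 203 and 353, 48 and 23, and 133 and 253. With single libraries left out, all genes higher in TPN than in sham ran from 83 to 1477 and those lower from 125 to 1705. All genes higher in starvation than in sham ran from 22 to 945, and those lower in TPN than in starvation from 81 to 826. With only the groups compared, 1130 were higher and 1644 lower in TPN against sham, and upper quartile factors gave 702 higher. The counts over all genes thus moved as well. ABC genes with 40 reads or fewer over the 9 libraries were not tested.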

Other observations

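Some ABC genes that lie close together differed in level or in fold change. On chromosome 5, Abcb1a, Abcb1b and Abcb4 stand in a row on the plus strand within 8660077 to 8959231, at 60.7 to 243 CPM for Abcb1a, 0.48 to 4.63 CPM for Abcb1b and 24 reads in all 9 libraries for Abcb4. On chromosome 16, Abcc5 (20331303 to 20426394, minus strand) and Abcf3 (20548577 to 20561379, plus strand) lie close together. Abcc5 had a log2 fold change of 0.95 ± 0.27 in TPN against sham (edgeR adjusted p = 0.0611) and Abcf3 one of -0.43 ± 0.18 (adjusted p = 0.156). Neither passed in that comparison. On chromosome 7, Abcc6 (45967555 to 46030302) and Abcc8 (46104523 to 46180033) share the minus strand, with 8.96 to 44.3 CPM for Abcc6 and 40 reads in all for Abcc8.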
